A study of Mus musculus with 18 samples.

Results

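The chemokines described here are 8 genes of the 12547 in the deposited expression table. They are Ccl1, Ccl3, Ccl4, Ccl5, Ccl22, Ccl24, Cxcl10 and Xcl1, chosen by gene name, and all 8 were present. The data were RNA-seq values on a log2 scale of counts from 18 libraries of mouse CD4 T cells, with 3 libraries in each of 6 groups. The groups were Id3-KO and WT cells of a set numbered 3, of a set numbered 5 and of a set numbered 6. All 6 groups started as naive CD4 T cells, were activated through CD3 and CD28 with coated beads, and were kept in Th1 medium with IL2, IL12 and an antibody against IL4. The labels do not give the meaning of the set numbers, the strain, the age, how Id3 was deleted, or whether replicates came from different mice. The authors' deposited table names its contrasts with 24 for set 3 and 96 for the later sets, and gives no unit.

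Chemokines are small secreted proteins that bind G protein-coupled receptors on other cells and draw those cells towards their source. Activated T cells secrete several of them and so recruit further T cells, monocytes, dendritic cells or eosinophils. Ccl3, Ccl4 and Ccl5 are inflammatory chemokines that attract monocytes and effector T cells. Cxcl10 is an interferon-induced ligand of CXCR3, the receptor typical of Th1 cells, and Xcl1 is the ligand of XCR1 on cross-presenting dendritic cells. Ccl1, Ccl22 and Ccl24 bind CCR8, CCR4 and CCR3, receptors known from Th2 cells, regulatory T cells and eosinophils. Id3 is an inhibitor that keeps E proteins, transcription factors that recognise the E-box, from binding DNA.

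Id3 itself stood between 1.0 and 5.63 in the 9 KO libraries and between 8.85 and 10.08 in the 9 WT libraries, so no library went against its label. T cell transcripts were abundant: 12 of 15 listed T cell markers were measured, and none was at the lowest value in all libraries of a group. The lowest value in a library was 1.0 to 1.11 and was shared by 149 to 350 genes. A chemokine at that value is described as at the lowest value, and a difference that involves a group with all 3 libraries there is said to rest on it. Where groups are said not to overlap, the share of all genes without overlap is not given. Such statements describe the libraries and are not support for a difference. Depth per library is unknown, and values of different genes are not comparable as levels because they are not per length. Over the whole table, KO cells differed from WT cells by a median of -0.07 in set 3, 0.39 in set 5 and 0.42 in set 6. In the later sets a shift of that size was therefore common to the whole table. The libraries of a group had identical medians, so a shift from processing and one in the cells cannot be told apart.

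Promoter sequences were available for 5 of the 8 genes in a RefSeq table of build GRCm38.p6, which is not the GRCm39 build named in the submitters' processing notes. The 250 bases before the transcription start of the 4 of these genes that were higher in KO cells on average over sets are printed to show which of them hold the E-box, the sequence that E proteins read. Capitals mark the E-box CANNTG and GGAAA, the core recognised by the activation factor NFAT, in either direction (TTTCC is GGAAA on the other strand).
Ccl1, chr11:82179813-82180062, minus strand: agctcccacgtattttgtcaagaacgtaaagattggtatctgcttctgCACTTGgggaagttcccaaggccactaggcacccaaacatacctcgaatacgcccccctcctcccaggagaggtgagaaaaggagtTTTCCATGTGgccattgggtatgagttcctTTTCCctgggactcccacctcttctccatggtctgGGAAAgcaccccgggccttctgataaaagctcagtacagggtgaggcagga
Ccl3, chr11:83649379-83649628, minus strand: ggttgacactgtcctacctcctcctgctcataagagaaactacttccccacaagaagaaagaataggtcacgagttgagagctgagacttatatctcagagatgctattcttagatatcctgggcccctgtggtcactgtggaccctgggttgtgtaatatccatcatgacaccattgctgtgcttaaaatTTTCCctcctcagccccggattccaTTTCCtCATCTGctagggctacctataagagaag
Ccl22, chr8:94745434-94745683, plus strand: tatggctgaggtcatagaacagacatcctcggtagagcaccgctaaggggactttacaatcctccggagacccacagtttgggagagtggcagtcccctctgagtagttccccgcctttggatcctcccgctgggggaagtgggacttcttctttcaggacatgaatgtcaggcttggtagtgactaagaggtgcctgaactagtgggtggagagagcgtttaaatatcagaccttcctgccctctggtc
Cxcl10, chr5:92348890-92349139, minus strand: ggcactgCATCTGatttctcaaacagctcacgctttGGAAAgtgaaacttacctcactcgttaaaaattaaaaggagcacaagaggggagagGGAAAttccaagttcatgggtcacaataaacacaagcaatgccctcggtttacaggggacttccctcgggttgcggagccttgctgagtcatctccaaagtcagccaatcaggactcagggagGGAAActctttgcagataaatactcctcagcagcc
The Ccl1 promoter held 2 E-boxes and 3 GGAAA cores, and 1 base was shared by an E-box and a core. The Ccl3 promoter held 1 E-box and 2 cores, and the Cxcl10 promoter 1 E-box and 3 cores. The Ccl22 window held neither. Xcl1, whose promoter is not printed, had 1 core and no E-box. Of 32851 promoters of the same length, 66.2% held an E-box and 55.6% a GGAAA core, so both are common. None of the 5 windows held the CAGCTG or CAGGTG forms of the E-box, which 13.0% and 17.2% of all promoters held. The T-box core GTGTGA was found once, in the Xcl1 window, and in 12.3% of all promoters. These matches describe letters in a window and are not measured binding sites.

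KO cells of all 3 sets had more transcript of the inflammatory chemokines Ccl3 and Ccl4 and of the CXCR3 ligand Cxcl10 than WT cells. In set 3 the calls of Ccl3, Ccl4 and Cxcl10 were all lost without KO replicate 1 or without WT replicate 1. Relative to the median of all genes, Ccl4 did not pass in set 6. Ccl5 was also higher in KO cells of set 3 and stood lower than in WT cells in set 6. The eosinophil attractant Ccl24 was raised in set 3. Xcl1 did not differ detectably between the genotypes in set 3, where it was most abundant. By limma with Benjamini-Hochberg adjustment over all genes, 5 of 8 chemokines were higher in KO cells of set 3 and none was lower. In the same comparison 6.92% of all genes were higher and 4.46% lower. These shares stand for 868 and 559 genes, and with 1 library left out the counts were 454 to 1098 and 212 to 816; they moved by over 1.5 times without KO replicate 1 or 3 or WT replicate 1, and the lower count also without WT replicate 3. In set 5, 6 were higher and none lower, beside 50.1% and 8.08% of all genes. In set 6, 3 were higher and 1 was lower, beside 53.9% and 4.59%. In sets 5 and 6 higher values in KO cells were thus common to the whole table, and the chemokine counts are read against those shares. With every library centred on its own median, 5 were higher and none lower in set 3 (7.29% and 3.28% of all genes), 4 were higher and 1 lower in set 5 (24.9% and 24.7% of all genes), and 2 were higher and 1 lower in set 6 (18.8% and 18.5%). The median difference over the 8 genes was 1.86 in set 3, 1.86 in set 5 and 1.43 in set 6 as deposited, and 1.88, 1.47 and 1.02 after centring. The set 3 count fell to 2 without KO replicate 1, to 2 without WT replicate 1 and to 3 without WT replicate 3.

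**Figure D1:**
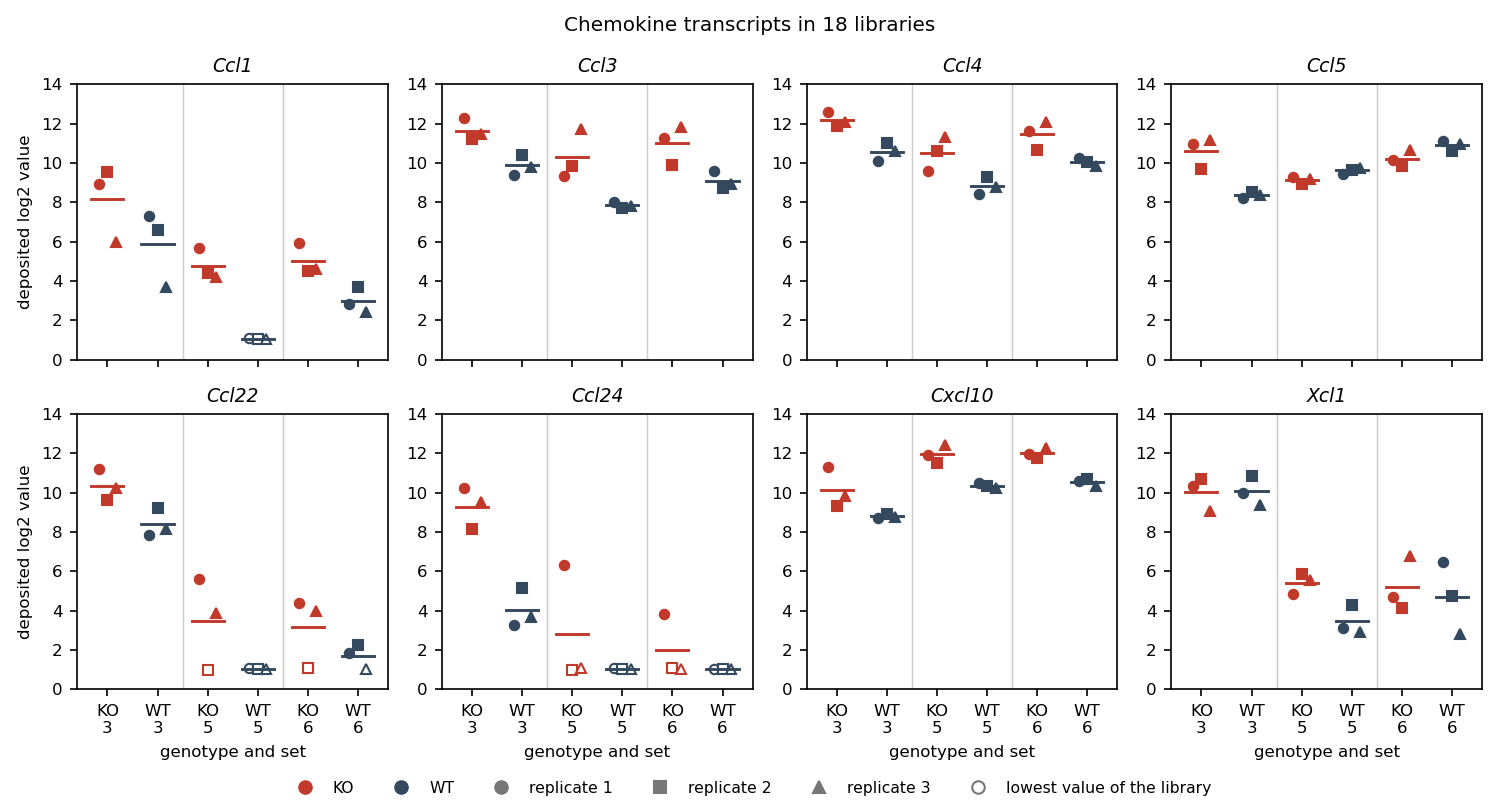
Deposited log2 value (y axis) of the 8 chemokine genes in each library, by genotype and set (x axis); symbols are replicates, bars are group means of 3 libraries, and open symbols are at the lowest value of their library. Ccl3, Ccl4 and Cxcl10 lie higher in KO than in WT cells of every set, while Ccl1, Ccl22, Ccl24 and Xcl1 are highest in set 3.

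Ccl3, also called MIP-1α, had log2 values of 12.27, 11.21 and 11.49 in KO cells of set 3, against 9.39, 10.43 and 9.82 in WT cells. The groups did not overlap, and the difference was 1.78 (SE 0.53; adjusted p = 0.0426 by limma), or 3.43-fold. Set 5 gave 9.33, 9.84 and 11.72 in KO cells and 8.02, 7.71 and 7.83 in WT cells. All 3 KO libraries were above all 3 WT libraries, with KO replicate 3 far above the other 2. The difference was 2.44 (SE 0.53; adjusted p = 0.000924). In set 6 the values were 11.28, 9.91 and 11.82 in KO cells and 9.58, 8.74 and 8.91 in WT cells, again without overlap (difference 1.92, SE 0.53; adjusted p = 0.00559). The call in set 3 did not hold when KO replicate 1, KO replicate 3, WT replicate 1 or WT replicate 3 was left out, with adjusted p from 0.0801 to 0.185.

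Ccl4, or MIP-1β, lies next to Ccl3 on chromosome 11 in the GRCm38 annotation and was the gene with the profile most like it (Pearson r = 0.96 over 18 libraries). It had 12.60, 11.87 and 12.09 in KO cells of set 3, against 10.09, 11.03 and 10.63 in WT cells. No KO library fell below a WT library, and the difference was 1.60 (SE 0.40; adjusted p = 0.0161). In set 5 it had 9.61, 10.64 and 11.34 in KO cells and 8.45, 9.30 and 8.81 in WT cells, a difference of 1.68 (SE 0.40; adjusted p = 0.00179). In set 6 it had 11.65, 10.68 and 12.09 in KO cells and 10.25, 10.03 and 9.87 in WT cells, a difference of 1.42 (SE 0.40; adjusted p = 0.00596). In both later sets the lowest KO library stayed above the highest WT library. Relative to the median of all genes the set 6 difference was 1.01 and did not pass (adjusted p = 0.0569). The set 3 call was lost without KO replicate 1 or WT replicate 1 (adjusted p = 0.0877 and 0.0792).

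For this pair no difference in KO effect between set 3 and a later set passed. The effect in set 5 minus that in set 3 was 0.67 for Ccl3 (95% interval -0.98 to 2.31) and 0.08 for Ccl4 (-1.15 to 1.30). In set 6 minus set 3 it was 0.15 for Ccl3 (-1.50 to 1.79) and -0.18 for Ccl4 (-1.41 to 1.05). All 4 intervals reach past 1 on the log2 scale, so a change of that size cannot be told from none. Across the 6 groups the mean of Ccl3 ran in the order KO set 3, KO set 6, KO set 5, WT set 3, WT set 6 and WT set 5. Only the last 2 neighbours in that order had ranges that did not overlap.

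Ccl5, known as RANTES and typical of effector and memory T cells, did not keep 1 direction. In set 3 it stood at 11.00, 9.70 and 11.17 in KO cells and at 8.21, 8.55 and 8.37 in WT cells. Every KO library was above every WT library, with a difference of 2.24 (SE 0.29; adjusted p = 0.000183), or 4.74-fold. In set 5 the KO values were 9.28, 8.94 and 9.18 and the WT values 9.45, 9.66 and 9.76. All KO libraries were below all WT libraries, by a mean of -0.49 (SE 0.29; adjusted p = 0.161) that did not pass as deposited. Relative to the median of all genes the difference was -0.88 and passed (adjusted p = 0.0197). In set 6 the KO values were 10.14, 9.85 and 10.65 and the WT values 11.15, 10.60 and 11.00. KO replicate 3 lay just above the lowest WT library, and the difference was -0.70 (SE 0.29; adjusted p = 0.0488), or -1.11 after centring (adjusted p = 0.007). As deposited the set 6 call ended when KO replicate 1, KO replicate 2, WT replicate 1 or WT replicate 3 was left out (adjusted p from 0.108 to 0.183). The turn itself was tested: the KO effect on Ccl5 was lower in set 5 than in set 3 by a difference of -2.73 (SE 0.41; adjusted p = 5.64e-05), and in set 6 than in set 3 by -2.95 (SE 0.41; adjusted p = 3.94e-05). For set 5 minus set 3, 43.2% of all genes had a higher and 6.82% a lower KO effect, and for set 6 minus set 3 46.2% and 4.11%. Between sets 6 and 5 the KO effect on Ccl5 differed by -0.21 (SE 0.41; adjusted p = 0.894).

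Cxcl10, also called IP-10, had 11.29, 9.31 and 9.83 in KO cells of set 3 and 8.70, 8.94 and 8.76 in WT cells. The KO libraries were all higher but spread more widely, and the WT libraries lay close together. The difference was 1.34 (SE 0.35; adjusted p = 0.0202), and without KO replicate 1 it was 0.76 and did not pass (adjusted p = 0.0621). The call was also lost without WT replicate 1 or 3 (adjusted p = 0.0672 and 0.0556). In set 5 the KO values were 11.91, 11.51 and 12.44 and the WT values 10.48, 10.36 and 10.22, with no overlap and a difference of 1.60 (SE 0.35; adjusted p = 0.000873). In set 6 the KO values were 11.98, 11.78 and 12.28 and the WT values 10.61, 10.69 and 10.33, a difference of 1.46 (SE 0.35; adjusted p = 0.00181). In these sets every KO library stood more than 1 above every WT library. Cxcl10 was the only one of the 8 whose mean was higher in sets 5 and 6 than in set 3 in both genotypes.

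Xcl1, or lymphotactin, was 10.37, 10.70 and 9.06 in KO cells of set 3 and 9.97, 10.87 and 9.38 in WT cells. The groups overlapped throughout, and the difference was -0.03 (SE 0.80; adjusted p = 0.983, 95% interval -1.78 to 1.72). In set 5 it was 4.87, 5.86 and 5.56 in KO cells and 3.12, 4.31 and 2.93 in WT cells, all KO libraries above all WT libraries. That difference of 1.98 (SE 0.80; adjusted p = 0.0446) did not pass relative to the median of all genes (1.59, adjusted p = 0.113). The call also ended when KO replicate 2, KO replicate 3, WT replicate 1 or WT replicate 3 was left out (adjusted p from 0.0962 to 0.128). In set 6 the values were 4.71, 4.13 and 6.80 in KO cells and 6.49, 4.76 and 2.81 in WT cells, with overlap and a difference of 0.53 (SE 0.80; adjusted p = 0.591).

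**Figure D2:**
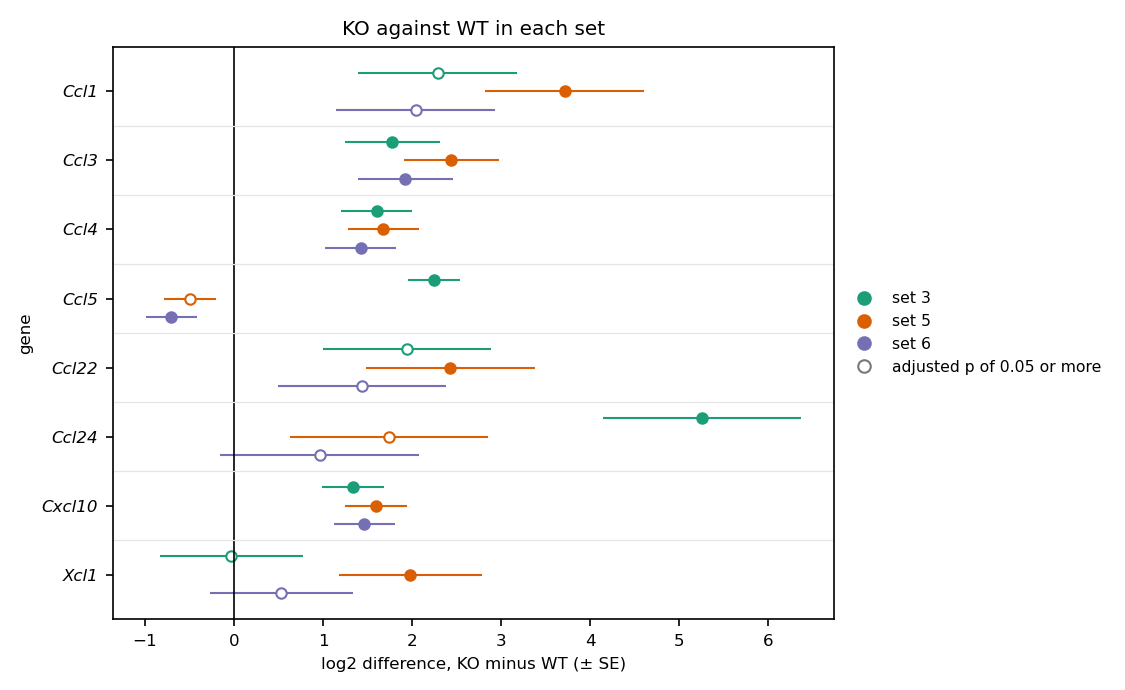
Log2 difference of KO from WT cells (x axis, bars are SE from the limma fit) for each chemokine (y axis) in sets 3, 5 and 6; filled points passed an adjusted p under 0.05. Ccl5 is at 2.24 in set 3 and below 0 in sets 5 and 6, whereas Ccl3, Ccl4 and Cxcl10 are filled and above 0 in all 3 sets.

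Ccl1, a T cell chemokine that acts through CCR8, was 8.93, 9.56 and 5.97 in KO cells of set 3 and 7.30, 6.62 and 3.68 in WT cells. Replicate 3 was the lowest of its group in both genotypes, the groups overlapped, and the difference of 2.29 (SE 0.89; adjusted p = 0.111) did not pass. Without KO replicate 3 it passed (difference 3.38; adjusted p = 0.0208). In set 5 the KO values were 5.70, 4.41 and 4.20, and all 3 WT libraries were at the lowest value, so that Ccl1 was called higher (adjusted p = 0.00195) without a fold. In set 6 it was 5.93, 4.51 and 4.64 in KO cells and 2.83, 3.67 and 2.45 in WT cells. Every KO library was above every WT library, and the difference of 2.04 (SE 0.89) missed the threshold (adjusted p = 0.0602).

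Ccl22, a chemokine best known from dendritic cells and macrophages, was 11.22, 9.62 and 10.23 in KO cells of set 3 and 7.83, 9.23 and 8.18 in WT cells. The groups did not overlap, but the difference of 1.94 (SE 0.95; adjusted p = 0.198) did not pass. In set 5 KO replicates 1 and 3 stood at 5.60 and 3.86, while KO replicate 2 and all 3 WT libraries were at the lowest value. Ccl22 was called higher there (adjusted p = 0.037). The call ended when KO replicate 1, KO replicate 3 or a single WT replicate was left out (adjusted p from 0.0715 to 0.217), and relative to the median of all genes (0.0848). Set 6 gave 4.39, the lowest value and 3.96 in KO cells, and 1.86, 2.25 and the lowest value in WT cells. KO replicate 2 was at the lowest value in both sets, and the difference of 1.44 (SE 0.95; adjusted p = 0.205) did not pass. Without that library it did (2.47; adjusted p = 0.0315).

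Ccl24, or eotaxin-2, an attractant of eosinophils, was 10.22, 8.14 and 9.52 in KO cells of set 3 and 3.28, 5.16 and 3.67 in WT cells. No KO library came near a WT library, and the difference of 5.26 (SE 1.11; adjusted p = 0.00607) was the largest among the 8 in that set. In set 5 KO replicate 1 stood at 6.30 and the other 5 libraries were at the lowest value. In set 6 KO replicate 1 stood at 3.85 and the other 5 were at the lowest value. Neither later set passed (adjusted p = 0.193 and 0.477), and in both the signal came from 1 library. The KO effect was lower in set 6 than in set 3 (difference -4.29, SE 1.58; adjusted p = 0.0327), a value that rests on the lowest value in WT cells. That call was lost when any 1 of 9 of the 12 libraries was left out (adjusted p from 0.0526 to 0.0782), the exceptions being KO replicate 2 and WT replicate 2 of set 3 and KO replicate 1 of set 6. For set 5 minus set 3 the difference was -3.51 (SE 1.58; adjusted p = 0.0744), or -5.27 without KO replicate 1 of set 5 (adjusted p = 0.000958), and these too rest on the lowest value.

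Averaged over the 3 sets with equal weight, 6 of the 8 were higher in KO cells and none lower, beside 55.1% and 8.34% of all genes. The differences were 2.68 for Ccl1 (SE 0.51; adjusted p = 0.00027 by limma), 2.05 for Ccl3 (SE 0.31; adjusted p = 2.56e-05) and 1.57 for Ccl4 (SE 0.23; adjusted p = 2e-05). They were 1.94 for Ccl22 (SE 0.55; adjusted p = 0.00557), 2.65 for Ccl24 (SE 0.64; adjusted p = 0.00188) and 1.47 for Cxcl10 (SE 0.20; adjusted p = 9.46e-06). The averages of Ccl1, Ccl22 and Ccl24 include groups at the lowest value. The SEs treat the libraries of sets 5 and 6 as independent, although those of equal number went together. The adjusted p of these averages can therefore be too small. Xcl1 (0.83, SE 0.46; adjusted p = 0.131) and Ccl5 (0.35, SE 0.17; adjusted p = 0.0799) did not pass, and Ccl5 averages over opposite directions. Without KO replicate 2 of set 3, Ccl5 did pass (0.50; adjusted p = 0.000877), as it did without KO replicate 2 of set 6 (0.41; 0.0483), and Xcl1 passed without WT replicate 1 of set 6 (1.13; 0.027). All 6 also passed after centring, beside 25.9% of all genes higher and 26.9% lower.

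The change between sets was large for most of these chemokines and went the same way in both genotypes, apart from Ccl5. In KO cells, 1 chemokine was higher and 7 were lower in set 5 than in set 3, beside 49.8% and 23.4% of all genes. In WT cells, 2 were higher and 6 lower, beside 29.3% and 38.3%. For set 6 against set 3, 1 was higher and 4 were lower in KO cells, beside 54% and 19.3% of all genes, and 2 were higher and 4 lower in WT cells, beside 32.6% and 35.1%. These contrasts share libraries with the KO against WT comparisons, so they are given side by side and not as independent evidence. Set 5 against set 3 and set 6 against set 3 also share the libraries of set 3.

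Ccl22 was lower in sets 5 and 6 than in set 3 in both genotypes. Its KO mean was 3.49 ± 2.32 in set 5 and 3.14 ± 1.81 in set 6, against 10.36 ± 0.81 in set 3 (SD, n = 3 each). The KO differences from set 3 were -6.87 and -7.21 (SE 0.95 each; adjusted p = 6.02e-06 and 3.48e-06 by limma), with 1 KO library of either later set at the lowest value. In WT cells the mean was 1.71 ± 0.63 in set 6, against 8.41 ± 0.72 in set 3 (SD, n = 3 each), and in set 5 all libraries were at the lowest value. Xcl1 was also lower, differing from set 3 by -4.61 in set 5 and by -4.83 in set 6 of KO cells, and by -6.62 and -5.39 in WT cells (SE 0.80 each; adjusted p from 2.02e-06 to 7.25e-05). Every library of sets 5 and 6 was below every library of set 3 for Ccl22 and for Xcl1. Ccl1 differed from set 3 by -3.38 and -3.13 in KO cells and by -2.88 in WT cells of set 6 (SE 0.89 each; adjusted p from 0.00278 to 0.00912). The WT call ended without WT replicate 1 of set 3 (adjusted p = 0.0572). Ccl24 in KO cells differed from set 3 by -6.50 in set 5 (adjusted p = 6.25e-05) and by -7.32 in set 6 (1.81e-05; SE 1.11 for both), with 2 of 3 KO libraries of either later set at the lowest value. In WT cells Ccl24 was at the lowest value in all 6 later libraries and above it in all 3 of set 3.

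Markers of several other cell types also differed between the sets, to be read against the shares of all genes given above for each contrast. Several lists were measured only in part: 7 of 18 macrophage and monocyte, 8 of 13 dendritic cell and 3 of 7 γδ and NKT markers. Of the granulocyte, mast cell and basophil list, 10 of 16 were measured. Among those not measured were Csf1r, Cd14 and C1qa of macrophages, Flt3 and Clec9a of dendritic cells, and S100a8 and Mpo of granulocytes. Of 8 dendritic cell markers, 7 were lower and none higher in set 5 than in set 3 of KO cells, and 7 were lower and 1 higher in WT cells. For set 6 the counts were 7 and none in KO cells and 6 and 1 in WT cells. Fscn1, which encodes the actin bundler of mature dendritic cells, differed by -5.09 in KO and -2.65 in WT cells of set 5 (SE 0.60; adjusted p = 1.05e-06 and 0.000981). H2-Aa differed by -4.29 and -4.80 (SE 0.71; adjusted p = 4.11e-05 and 1.69e-05), with 1 WT library of set 5 at the lowest value. H2-Ab1, also of MHC class II, was the higher marker in WT cells, by 2.75 in set 5 and 2.98 in set 6 (SE 0.47; adjusted p = 6.85e-05 and 2.97e-05 by limma). In KO cells H2-Ab1 differed by -0.21 and 0.46 and did not pass (adjusted p = 0.704 and 0.388). Of 8 B cell markers, 5 were lower in set 5 and 5 in set 6 of KO cells, against 4 and 3 in WT cells, where 1 was higher in set 5. Of 10 granulocyte, mast cell and basophil markers, 10 and 9 were lower in KO cells, against 1 and none in WT cells, where 1 and 2 were higher. Of 12 NK cell markers, 7 and 8 were lower in KO cells, against 10 and 4 in WT cells, where 1 was higher in each set. Of 7 macrophage markers, 4 and 5 were higher and 1 and 2 lower in KO cells, and 4 were higher and 1 lower in WT cells of either set. Of 12 T cell markers, 10 were higher and 1 lower in both later sets of KO cells, against 7 and 4 in set 5 and 7 and 2 in set 6 of WT cells. The CD8 list of 2 had 1 lower in KO and 2 in WT cells of either set. Of the 3 γδ and NKT markers, 1 was lower in set 5 and none in set 6 of KO cells, and in WT cells 1 was higher in each set, with 2 lower in set 5 and 1 in set 6. The part of these cells in the set differences of the chemokines was not tested.

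Cxcl10 moved the other way. It was higher than in set 3 by 1.81 in set 5 and 1.87 in set 6 of KO cells, and by 1.55 and 1.74 in WT cells (SE 0.35 each; adjusted p from 0.000135 to 0.000868). Ccl3 and Ccl4 were lower in set 5 than in set 3 in both genotypes. The differences were -1.36 in KO and -2.03 in WT cells for Ccl3 (SE 0.53; adjusted p = 0.0304 and 0.0031), while Ccl4 had -1.66 in KO and -1.73 in WT cells (SE 0.40; adjusted p = 0.00137 and 0.00111). The KO value of Ccl3 did not pass without KO replicate 1 of set 3 or KO replicate 1 or 2 of set 5 (adjusted p from 0.105 to 0.165). For set 6 against set 3 neither gene passed in either genotype, with differences from -0.80 to -0.54. After centring, Ccl4 in KO cells was lower in set 6 than in set 3 (-1.2; adjusted p = 0.0137).

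Ccl5 went opposite ways in the 2 genotypes in set 5 against set 3. In KO cells its mean was 9.13 ± 0.17 in set 5 and 10.21 ± 0.40 in set 6, against 10.62 ± 0.81 in set 3 (SD, n = 3 each). In WT cells it was 9.62 ± 0.16 in set 5 and 10.92 ± 0.28 in set 6, against 8.38 ± 0.17 in set 3 (SD, n = 3 each). Set 5 differed from set 3 by -1.49 in KO and 1.25 in WT cells (SE 0.29 each; adjusted p = 0.000228 and 0.00126). The set 6 difference was -0.41 in KO cells (adjusted p = 0.217) and 2.54 in WT cells (adjusted p = 1.03e-06; SE 0.29 each). In KO cells the set 6 difference passed after centring (-0.89; adjusted p = 0.0125) and without KO replicate 2 of set 3 (-0.87; adjusted p = 0.00129).

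**Figure D3:**
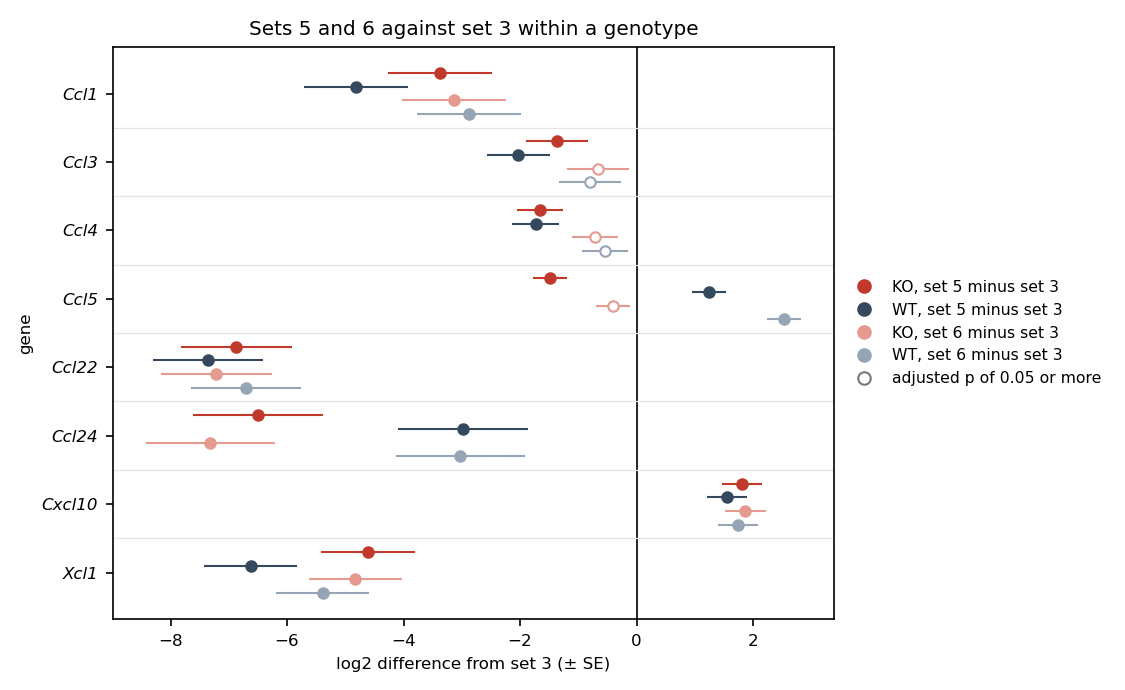
Log2 difference of sets 5 and 6 from set 3 (x axis, bars are SE from the limma fit) for each chemokine (y axis) in KO and WT cells; filled points passed an adjusted p under 0.05. Ccl22 and Ccl24 lie furthest below 0 in KO cells (-7.21 and -7.32 in set 6), the WT points of Ccl24 and the set 5 WT points of Ccl1 and Ccl22 rest on the lowest value, Cxcl10 lies above 0 in all 4 contrasts, and Ccl5 is below 0 in KO and above 0 in WT cells.

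Between sets 6 and 5 few of these genes passed. In KO cells 1 chemokine was higher in set 6 and none lower, beside 9.93% and 2.03% of all genes, and in WT cells 1 was higher and none lower, beside 3.01% and 0.359%. With 1 library left out, 512 to 1319 genes were higher and 77 to 328 lower in KO cells (1246 and 255 with all), and 98 to 346 and 13 to 39 in WT cells (378 and 45 with all). The counts moved by over 1.5 times without KO replicate 1 or 3 of set 5 or 1 or 2 of set 6, and without WT replicate 1, 2 or 3 of set 5 or 2 or 3 of set 6. In KO cells the chemokine call did not pass after centring (adjusted p = 0.0513). In both genotypes this chemokine was Ccl5, higher by 1.08 in KO cells (SE 0.29; adjusted p = 0.0269) and by 1.29 in WT cells (SE 0.29; adjusted p = 0.0239). Either call was lost when some single libraries were left out: in KO cells KO replicate 2 or 3 of set 5 or 1 or 3 of set 6 (adjusted p from 0.0627 to 0.0915), in WT cells any 1 replicate of set 5 or replicate 1 or 3 of set 6 (0.0531 to 0.107). With libraries of equal number treated as pairs within a genotype, Ccl1 and Ccl3 were also higher in set 6 of WT cells (adjusted p = 0.0123 and 0.0439). No difference in KO effect between sets 6 and 5 passed by limma, among the 8 chemokines or the 12547 genes (0%); 1320 genes and none of the 8 had an unadjusted p under 0.05. With that pairing 286 genes had a higher and 223 a lower KO effect in set 6, none of them among the 8.

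Libraries of 1 group differed among themselves in a few of these genes. In KO cells of set 3, replicate 1 held the highest value of Ccl3, Ccl4, Ccl22, Ccl24 and Cxcl10. In the same library the summed level of 8 measured dendritic cell markers was 14.13, against 11.91 and 12.52 in KO replicates 2 and 3 and 10.80 to 11.17 in WT cells of set 3. The 8 measured B cell markers summed there to 10.88, against 8.11 and 8.36 in the other KO libraries and 6.33 to 7.29 in WT cells. These sums are log2 values of added linear values. Without KO replicate 1 the differences in set 3 were 1.47 for Ccl3 (adjusted p = 0.185), 1.39 for Ccl4 (0.0877) and 0.76 for Cxcl10 (0.0621), while Ccl5 and Ccl24 still passed. In KO cells of sets 5 and 6, replicate 1 held the highest value of Ccl1, Ccl22 and Ccl24 and replicate 3 that of Ccl3, Ccl4 and Cxcl10. Ccl24 was off the lowest value in replicate 1 alone.

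Markers of other cell types that can make chemokines moved with the genotype. In set 3, of 8 measured dendritic cell markers, 6 were higher in KO cells, among them Cd74 and H2-Aa, genes of antigen presentation by MHC class II, by 1.42 (SE 0.37) and 2.76 (SE 0.71). Without KO replicate 1, 1 of the 8 was higher. Of 7 measured macrophage and monocyte markers 2 were higher in set 3, 1 of them Cd68 by 1.10 (SE 0.27), with sums of 7.30 to 7.82 in KO cells and 6.37 to 6.87 in WT cells. Adgre1, which encodes the macrophage marker F4/80, differed by -0.17 (SE 0.71; adjusted p = 0.899) there. Of 12 measured NK cell markers 5 were higher (2 without KO replicate 1), with sums of 12.18 to 13.06 in KO cells and 11.15 to 11.66 in WT cells. Of 8 B cell markers 6 were higher, 1 without KO replicate 1. Of 10 granulocyte, mast cell and basophil markers 9 were higher (8 without it), with sums of 9.85 to 10.16 in KO cells and 6.45 to 7.26 in WT cells. Of 3 γδ and NKT cell markers 2 were higher, and neither of the 2 CD8 markers passed.

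In sets 5 and 6, 4 and 3 of the 8 dendritic cell markers, 2 and 3 of the 7 macrophage markers and 1 and none of the 8 B cell markers were higher in KO cells, where 50.1% and 53.9% of all genes were. Adgre1 was higher by 2.72 in set 5 (adjusted p = 0.00371) and by 3.96 in set 6 (adjusted p = 0.000186), with an SE of 0.71. Of the NK cell list 5 were higher in set 5, and 1 was higher and 1 lower in set 6. Of the granulocyte list 1 and 2 were higher and 1 was lower in each set. The γδ and NKT list had 1 and 2 higher, and 1 CD8 marker was higher in set 5. Of the 12 T cell markers themselves, 1 was higher and 5 lower in set 3, and 10 were higher in set 5 and in set 6 (3 and 2 after centring). Sums of the dendritic cell list were 11.28 to 11.71 in KO and 10.65 to 10.83 in WT cells of set 5, and 11.62 to 12.10 and 10.98 to 11.04 in set 6. Sums of the macrophage list were 9.54 to 9.93 in KO and 7.57 to 7.98 in WT cells of set 5, and 10.46 to 10.66 and 8.73 to 9.55 in set 6. Lyz2, a macrophage and granulocyte lysozyme, was at the lowest value in WT cells of set 5 and in both genotypes of set 6. NK cell sums were 11.04 to 11.95 in KO and 10.31 to 11.19 in WT cells of set 5, and 11.34 to 12.23 and 12.17 to 12.30 in set 6. Granulocyte list sums were 6.12 to 7.03 in KO and 7.70 to 8.10 in WT cells of set 5, and 6.81 to 7.65 and 7.72 to 7.92 in set 6. In bulk RNA, more cells of a type, more RNA per cell and transcription of a marker by the T cells cannot be told apart. The part of other cell types in the chemokine values was not tested.

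The marker genes named by smallest adjusted p of KO against WT over sets are given here with their log2 difference averaged over sets. Among dendritic cell markers they were Cd74 (2.18, SE 0.21), H2-Aa (2.76, SE 0.41) and H2-Eb1 (2.19, SE 0.34), which serve MHC class II presentation. Macrophage markers were led by Cd68 (1.60, SE 0.15), Adgre1 (2.17, SE 0.41) and the Fc receptor gene Fcgr3 (0.87, SE 0.28). Fcgr3 passed in set 3 alone (2.11, against 0.33 and 0.16 in sets 5 and 6). B cell markers were led by Cd79a (1.61, SE 0.36), Cd79b (1.66, SE 0.38) and Ebf1 (1.34, SE 0.39, with all WT libraries of set 5 at the lowest value). Cd79a and Ebf1 passed in set 3 alone (2.50 and 2.45), and Cd79b in set 5 alone (1.69). The mast cell genes Cpa3 (2.24, SE 0.32), Hdc (1.74, SE 0.28) and Tpsb2 were higher, the last through set 3, being at the lowest value in all libraries of sets 5 and 6, and Kit was lower on average (-1.25, SE 0.26). The NK receptor genes Klra3 (3.19, SE 0.41), Klrc1 (1.45, SE 0.23) and Klrk1 (0.95, SE 0.25), Zbtb16 of NKT cells (3.38, SE 0.32) and Cd8b1 (0.27, SE 0.10) were higher. Of the T cell markers Lck (0.30, SE 0.04), Cd247 (0.36, SE 0.05) and Thy1 (0.74, SE 0.11) were higher and Cd6 lower (-0.31, SE 0.09). Adjusted p over these genes ran from 2.09e-07 to 0.0275 by limma.

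Of 8 listed receptors for these chemokines, 5 were measured. In set 3, 3 were higher in KO cells and none was lower, in set 5, 4 and none, and in set 6, 4 were higher and 1 lower, where 6.92%, 50.1% and 53.9% of all genes were higher. Of all genes 4.46%, 8.08% and 4.59% were lower. After centring the counts were 4 and none, 3 and 1, and 4 and 1. Of all genes 7.29%, 24.9% and 18.8% were then higher and 3.28%, 24.7% and 18.5% lower. The median difference was 1.38, 1.39 and 1.95 as deposited. Without KO replicate 1, 2 were higher in set 3. Ccr1, a receptor for Ccl3 and Ccl5, was higher by 1.91 in set 3 (SE 0.55; adjusted p = 0.0342), 4.26 in set 5 (adjusted p = 6.38e-06) and 3.85 in set 6 (adjusted p = 2.11e-05), with 2 of 3 WT libraries of set 5 at the lowest value. Ccr4, which binds Ccl22, was higher by 1.06, 1.03 and 0.90 (SE 0.17 each; adjusted p = 0.00102, 9.17e-05 and 0.00035).

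Ccr8, the receptor of Ccl1, differed by 1.02 in set 3 (SE 0.32; adjusted p = 0.052) and was higher by 2.57 and 2.22 in sets 5 and 6 (adjusted p = 4.8e-06 and 2.51e-05). Its KO effect was larger in set 5 than in set 3 by 1.55 (SE 0.45; adjusted p = 0.00959). Ccr3, which binds Ccl24 and Ccl5, differed by 1.45 in set 3 (SE 0.55; adjusted p = 0.102) and was higher by 1.39 and 1.95 in sets 5 and 6 (adjusted p = 0.0397 and 0.00612). For Cxcr3, as for Ccl5, the KO effect was lower in the later sets than in set 3. Cxcr3, the receptor of Cxcl10, was higher by 1.38 in set 3 (SE 0.20; adjusted p = 0.000453), differed by -0.19 in set 5 (adjusted p = 0.434), and was lower in set 6 (-0.80; adjusted p = 0.00306). The KO effect on Cxcr3 in set 5 minus that in set 3 was -1.57 (SE 0.29; adjusted p = 0.0003), and in set 6 minus set 3 it was -2.18 (SE 0.29; adjusted p = 2.57e-05). For the ligand Cxcl10 the KO effect in set 6 minus set 3 was 0.13 and did not pass (SE 0.49; adjusted p = 0.847, 95% interval -0.94 to 1.19).

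**Figure D4:**
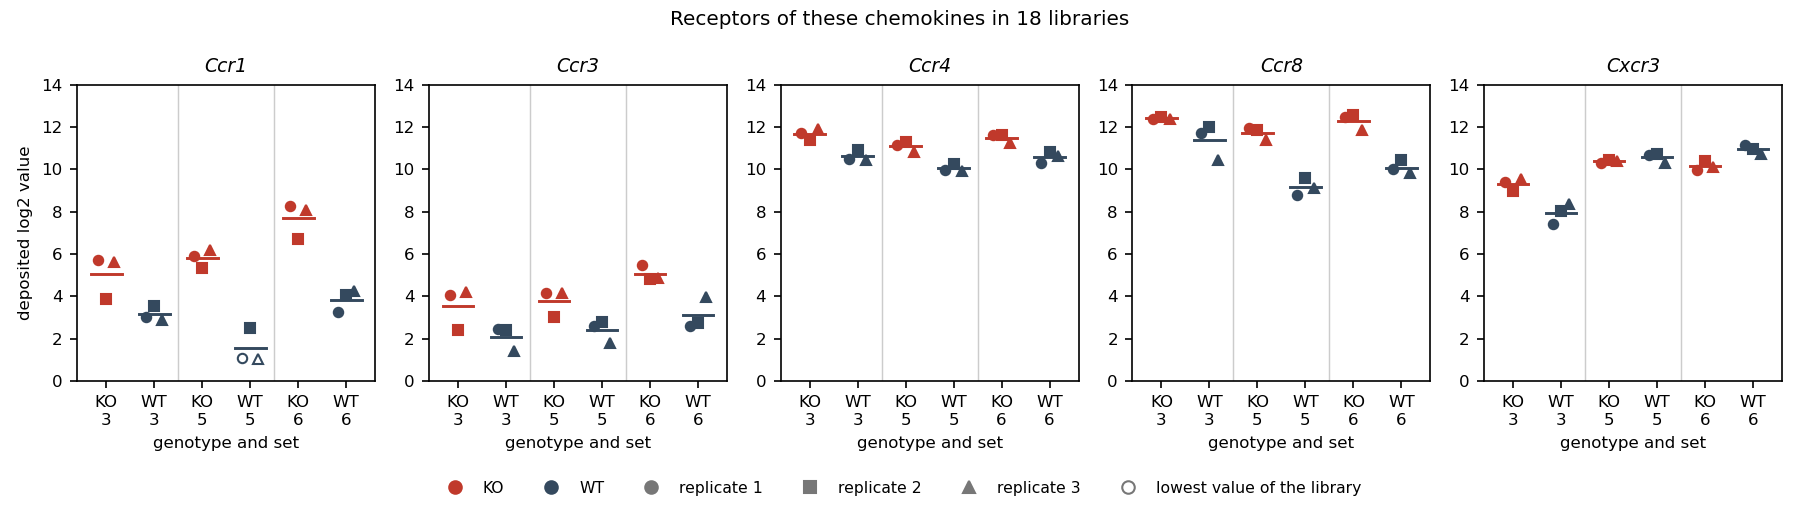
Deposited log2 value (y axis) of the 5 measured receptor genes in each library, by genotype and set (x axis); symbols are replicates, bars are group means of 3 libraries, and open symbols are at the lowest value of their library. Cxcr3 is higher in KO than in WT cells in set 3 but not in set 6, while Ccr1, Ccr4 and Ccr8 have higher KO means in all 3 sets.

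Among the 15 other chemokine ligands measured, 2 were higher in KO cells of set 3, 4 in set 5 and 7 in set 6, and none was lower. Of all genes, 6.92% were higher in set 3. In sets 5 and 6, 50.1% and 53.9% were higher, which is above the share of these ligands. After centring 2, 1 and 2 were higher, and 1 was lower in set 6. Of all genes 7.29%, 24.9% and 18.8% were then higher, and 18.5% were lower in set 6. Cxcl2, a neutrophil attractant, had KO differences of 3.96 in set 3 (adjusted p = 0.00866), 2.83 in set 5 (0.012) and 3.92 in set 6 (0.00132), with an SE of 0.89, and was higher in each. Cxcl3, a close relative, was higher by 3.27 on average over sets (SE 0.74; adjusted p = 0.00107), and Cklf, a chemokine-like factor, by 0.42 (SE 0.07; adjusted p = 3.86e-05). Ccl17, which like Ccl22 binds CCR4, had a mean of 7.13 ± 0.52 in KO and 5.23 ± 1.10 in WT cells of set 3 (SD, n = 3 each; adjusted p = 0.228 by limma). In WT cells of sets 5 and 6 it was at the lowest value. Cxcl9, which binds CXCR3 as Cxcl10 does, was higher by 2.37 in set 3 (SE 0.59; adjusted p = 0.0161) and differed by -1.31 in set 6 (adjusted p = 0.0667).

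Of 12 other chemokine receptors, 4 were higher and 1 lower in KO cells of set 3, 5 and 3 in set 5, and 3 and 2 in set 6, or 4 and 1, 4 and 5, and 3 and 4 after centring. As deposited, the shares higher in sets 5 and 6 were below those of all genes (50.1% and 53.9%, with 6.92% in set 3). Of all genes 4.46%, 8.08% and 4.59% were lower. After centring 7.29%, 24.9% and 18.8% of all genes were higher and 3.28%, 24.7% and 18.5% lower. The same shares stand beside the T cell cytokines that follow. On average over sets Ccr2 (2.51, SE 0.21), Cxcr4 (1.61, SE 0.18) and Cx3cr1 (1.51, SE 0.23) were higher and Ccr10 (-1.38, SE 0.34), Cxcr2 (-0.95, SE 0.27) and Ccr7 (-0.23, SE 0.09) lower, with adjusted p from 5.69e-08 to 0.034. Of 21 T cell cytokines, 14 were higher and 1 lower in set 3, 12 and 1 in set 5, and 14 and 1 in set 6, or 14 and none, 8 and 4, and 9 and 2 after centring. Of all genes 6.92%, 50.1% and 53.9% were higher as deposited, so the set 5 and set 6 counts are nearer to the background than that of set 3. Ifng, the Th1 cytokine that induces Cxcl10, was higher by 1.36, 1.05 and 0.81 (SE 0.32 each; adjusted p = 0.0108, 0.00895 and 0.0366). By the naming rule Il24 (3.70), Il13 (3.72) and Il5 (3.19) led the rises over sets (SE 0.21 each), and Tnfsf11, which encodes RANKL, was lower (-1.07, SE 0.18).

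Of 22 listed transcription factors known to act on chemokine genes, 7 were higher and 1 lower in set 3, 19 and 1 in set 5, and 16 and 1 in set 6, where 6.92%, 50.1% and 53.9% of all genes were higher. After centring the counts were 7 and 1, 15 and 1, and 11 and 2, where 7.29%, 24.9% and 18.8% of all genes were higher. The shares of all genes lower were 4.46%, 8.08% and 4.59% as deposited, and 3.28%, 24.7% and 18.5% after centring. Without KO replicate 1 of set 3, 4 were higher and none lower in set 3. Batf, Irf4 and Gata3 were higher by 2.22, 1.38 and 1.89 over sets (SE 0.10, 0.06 and 0.07), and Stat4, which carries the IL12 signal, was lower (-0.27, SE 0.08). Irf1, an interferon-induced factor, differed by -0.40 in set 3 (SE 0.14; adjusted p = 0.0753) and was higher by 1.96 and 1.89 in sets 5 and 6 (adjusted p = 2.69e-08 and 5.68e-08). Klf13, a factor known to sustain Ccl5 transcription in T cells, was lower in set 3 (-0.44, SE 0.12; adjusted p = 0.0288) and higher by 0.43 in set 5 (adjusted p = 0.00621). Tbx21, the gene of T-bet, did not pass in any set (-0.44, 0.36 and 0.16, SE 0.15 each; adjusted p = 0.078, 0.0518 and 0.399).

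Over the 18 libraries, the genes with profiles most like each chemokine were named by the highest Pearson r. For Ccl1 they were Rgs16 (r = 0.94) and Sh3rf1 (0.92), for Ccl22 Il1rn (0.97) and Klri2 (0.96), and for Xcl1 Ipo4 (0.97) and Rpusd2 (0.96). For Ccl3 they were Ccl4 (0.96) and Galc (0.91), for Ccl4 Ccl3 (0.96) and Plek (0.94), and for Ccl5 Lrrk1 (0.92) and Cd38 (0.90). For Ccl24 they were Sprr2a2 (0.96), a member of a family of near-identical genes, and Il9 (0.95), and for Cxcl10 Dnaja4 (0.96) and Dennd5a (0.96). The libraries fall into 6 groups, so a high r over them can come from shared differences between groups, and no test was made.

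The authors' deposited table called 2 of the 8 higher in set 3 (Ccl5 and Ccl24), 4 in set 5 and 3 in set 6, and none lower, beside 3.26%, 34% and 33.1% of all genes higher. For sets 5 and 6 combined the authors' deposited table called 5 higher, beside 41.6%, which were Ccl1, Ccl3, Ccl4, Ccl22 and Cxcl10, at adjusted p from 0.000228 to 0.034. There Ccl5 had a log2 fold change of -0.60 (adjusted p = 0.123 in the authors' deposited table). The authors' test score was 0 for some differences that were not 0, such as 0.19 for Cxcl10 in WT set 6 against set 5. The authors' counts are therefore not at the threshold used here. By limma with a minimum fold of 1.2, set 3 gave adjusted p of 0.117 (Ccl3), 0.0531 (Ccl4) and 0.0764 (Cxcl10). The adjusted p in the authors' deposited table were 0.119, 0.0543 and 0.0779.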

How the data were processed

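The libraries were made from poly(A)-selected RNA with a directional kit, per the labels' protocols. The authors named Salmon 1.9.0, edgeR, limma and GRCm39, per the submitters' processing notes, without saying what each did. The main table holds log2 values of counts, per the file headers; their normalization: not given in the sources used here. When the libraries of a group were each sorted, 97.0 to 98.4% of their values matched (within 1e-06), so values had been equalized within groups, which can make p-values too small; they measure only the spread between these libraries. The authors' table of 6 contrasts holds log2 fold changes, a test score and p-values, raw and adjusted, per the file headers; the authors' fold changes equal the differences of means used here.

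Columns were matched to samples by title. One linear model with 6 group means was fitted to the 12547 genes in limma 3.58.1 (R 4.3.3; moderated t with a variance trend, 12 residual degrees of freedom, 13 contrasts, Benjamini-Hochberg adjusted p under 0.05). A filter (log2 value of 0 or more in 3 libraries) removed no gene. The fit was run on simulated data with independent noise in each library. That run held no equalizing within groups and no pairing, so it does not speak to either. Intervals are 95%, from the SE and 12 degrees of freedom. The members and gene lists were chosen with earlier results of these data known. Named are all 8 chemokines, their receptors and, in each other list, the 3 called genes per direction with the smallest adjusted p over sets. Ccl17, Cxcl9, Ifng, Irf1, Klf13, Tbx21, Fscn1, Lyz2 and H2-Ab1 were added after their values were seen. Some genes of the lists are not reported here.

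Equal replicate numbers were checked for pairing by the correlation of deviations from group means. It was -0.08 to 0.18 for KO and WT of a set (-0.14 to 0.18 for unequal numbers). For KO set 3 with sets 5 and 6 it was 0.01 to 0.18 (unequal -0.15 to 0.06), and for WT set 3 with them 0.04 to 0.07 (unequal -0.06 to 0.01). In WT cells equal numbers thus stood above unequal ones for set 3 too, but no fit paired set 3 within a genotype. For sets 5 and 6 it was 0.22 to 0.34 in KO cells (unequal -0.25 to -0.07) and 0.12 to 0.16 in WT cells (unequal -0.09 to -0.03). The libraries of sets 5 and 6 were therefore treated as paired in an added fit, from the data and not from the labels. Differences averaged over sets did not use that fit, so their adjusted p can be too small.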

Additional observations from a re-analysis of the deposited data

Results flagged for a closer look

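The effect of the knockout on Ccl5 differed between sets. It was lower in set 5 than in set 3 by a difference of -2.73 (SE 0.41; adjusted p = 5.64e-05 by limma) and lower in set 6 than in set 3 by -2.95 (SE 0.41; adjusted p = 3.94e-05). Ccl5 was higher in all 3 KO libraries than in any WT library of set 3, and lower in all 3 KO libraries than in any WT library of set 5. The effect on Ccl24 was lower in set 6 than in set 3 by -4.29 (SE 1.58; adjusted p = 0.0327), a value that rests on WT libraries of set 6 at the lowest value. No group had more than 3 libraries, so single libraries were not tested for standing apart.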

How the results depend on the processing

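Of 1160 differences of single chemokines recomputed under 12 settings other than leaving out a library, 1115 kept their side of the threshold, 26 no longer passed and 19 newly passed. Of 864 with 1 library left out, 803 kept it, 52 no longer passed and 9 newly passed. No called chemokine changed sign; 13 and 48 values that passed in neither fit did. With centred libraries or quantile normalization, 1 chemokine instead of none was lower in KO cells of set 5, none instead of 1 was higher in KO cells of set 6 than of set 5, and Cklf reversed in set 5 (-0.0323 and -0.0204, from 0.36 as deposited). Without the variance trend, none instead of 1 was lower in set 6. With 1 added on the linear scale, 2 instead of 1 had a lower KO effect in set 5 than in set 3. With the compared groups alone, 1 was lower in set 5, 1 had a higher KO effect in set 5 than in set 3, and 4 were higher in WT set 6 than set 5. With a minimum fold of 1.2, 2 were higher in set 3, none lower in set 6, 1 had a lower KO effect in set 6 than in set 3, and none was higher in set 6 than set 5 of either genotype. With a log2 difference of at least 1, none was lower in set 6. The cause of these changes was not tested, apart from the stricter thresholds. Shares of all genes were not set beside each of these counts, so the counts show only how calls of single chemokines moved with the setting.

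Leaving out 1 library gave 2 to 5 chemokines higher in set 3 (5 with all libraries), beside 454 to 1098 of the 12547 genes. In set 5, 4 to 5 were higher (6 with all), beside 5816 to 5994 genes. In set 6, 3 to 4 were higher (3 with all), beside 6206 to 6332 genes, and 0 to 1 lower, beside 412 to 599. The KO effect was higher in set 5 than in set 3 for 0 to 1, beside 5055 to 5460 genes, and lower for 1 to 2, beside 676 to 1007. It was lower in set 6 than in set 3 for 1 to 2, beside 411 to 628 genes. In set 6 against set 5 of either genotype 0 to 1 were higher, beside 512 to 1319 genes in KO and 98 to 346 in WT cells. The replicate number as a block over all libraries called 959 genes higher and 748 lower in set 3 (868 and 559 without it); Ccl1 then passed in set 3 (adjusted p = 0.0424) and set 6 (0.02), Ccl5 over sets (0.0467), and Xcl1 in set 5 did not (0.0501). KO and WT libraries share only a number. With the block within each genotype, chosen after seeing the data, 3 chemokines instead of 1 were higher in WT set 6 than set 5, and all-gene calls were 2704 higher and 772 lower in KO cells (1246 and 255 without) and 1389 and 313 in WT cells (378 and 45). All-gene calls after centring were 3120 higher and 3098 lower in set 5 (6285 and 1014 as deposited) and 2353 and 2316 in set 6 (6760 and 576); with a minimum fold of 1.2 they were 410 and 82 in set 3. The filters removed no gene, so they changed nothing. Because depth is unknown, a chemokine at the lowest value is not shown to be absent.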
